A study of Mus musculus with 4 samples.

Results

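NRF2, encoded by Nfe2l2, and 9 of its antioxidant target genes were followed in smooth muscle cells labelled as knockout or control for the membrane-anchored collagenase MT1-MMP (Mmp14). The 10 genes were chosen by name, with earlier results of these data known. They were Nfe2l2, Nqo1, Hmox1, Gclc, Gclm, Txnrd1, Srxn1, Me1, Gsta4 and Slc7a11. The deposited table held 22180 genes with a row of their own. All 10 had such a row, and 0 of the rows annotated with several symbols named any of them. Slc7a11 had 2 rows, of which the one with the higher mean over the 4 arrays was kept.

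The knockout group (KO) was SM22α-Cre(+)Mmp14(fl/fl)Apoe(−/−) and the control group SM22α-Cre(−)Mmp14(fl/fl)Apoe(−/−), with 2 arrays each. Both groups carried floxed Mmp14 alleles and lacked Apoe, a lipoprotein component whose loss raises plasma cholesterol, and both had been fed a Western diet for 3 months, so they differ by label in the Cre recombinase alone. Cre was driven from the promoter of SM22α (Tagln), which is active in smooth muscle, and no age of the mice is given here. Vascular smooth muscle cells (VSMCs) were grown for 5 days from collagenase-digested thoracic aorta stripped of its adventitia, and 10 ng of total RNA was amplified for each Mouse Gene ST 2.1 array. The design text speaks of independent pairs of mice, so mouse, culture and hybridisation all contribute to the spread that a p-value here measures.

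NRF2 is a transcription factor that the adaptor KEAP1 hands to a CUL3 ubiquitin ligase for degradation. Electrophiles and oxidants modify KEAP1, NRF2 then accumulates, pairs with a small MAF protein and binds antioxidant response elements, where the repressor BACH1 can take its place. Its activity is set largely by protein stability, which an RNA array does not measure, and in the artery wall its targets are known for handling oxidised lipids, heme and glutathione.

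The core of the antioxidant response element, TGACNNNGC, was searched on both strands of the RefSeq promoter windows of GRCm38.p6, which run from 250 bases before to 50 bases after an annotated start. Of the 10 genes, 7 had a window, and 5 of these 7 held the core in at least 1 window, where Txnrd1 had 3 windows and Me1 had 2. Among the tested genes with a window, 16.6% held it, and among all 32851 windows 12.4% did. Nqo1 and Slc7a11 had no match in their windows. A match is a run of letters and not a measured binding site, and no match says only that these letters are not in that window. The stretches are shown because they lie in the genes whose values follow, with the core in capitals, read along the strand of the gene, and with positions counted from the start, whose base is +1.
Nfe2l2: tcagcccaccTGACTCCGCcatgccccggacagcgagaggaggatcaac
Gclm: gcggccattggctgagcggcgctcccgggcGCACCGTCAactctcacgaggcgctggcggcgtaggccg
Txnrd1: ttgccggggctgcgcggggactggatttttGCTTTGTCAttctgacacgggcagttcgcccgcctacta
Srxn1: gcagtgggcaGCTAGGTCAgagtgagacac
Me1: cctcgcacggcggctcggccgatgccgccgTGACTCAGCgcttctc

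The Nfe2l2 stretch is chr2:75704865-75704913 on the minus strand, with the core at positions -240 to -232. In Me1, chr9:86695905-86695950 on the minus strand, the core spans the start of 1 of its 2 windows, at positions -6 to 3. It also holds TGANTCA, the motif of AP-1 factors, which none of the other 4 cores does. The cores of Gclm (chr3:122245393-122245461), Txnrd1 (chr10:82859084-82859152) and Srxn1 (chr2:152105542-152105571), all on the plus strand, read on the opposite strand as TGACGGTGC, TGACAAAGC and TGACCTAGC. They lie at positions -134 to -126, -92 to -84 and 29 to 37.

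The targets read lower in KO cells and the gene of NRF2 itself read higher. All 9 target genes had a lower mean in the KO arrays, and for 8 of them both KO arrays lay below both control arrays. Over all 12550 genes tested, 7314 had a lower mean and 5236 a higher mean in the KO arrays. Of all genes tested 27.5% were lower without overlap and 16.7% were higher without overlap. The median log2 difference of the 10 genes, KO minus control, was -0.37, against -0.05 over all genes tested. None of the 10 passed the test over all genes, where limma called 0 genes (0%) at the threshold of 0.05 after adjustment, the lowest adjusted p being 0.104. At an unadjusted p under 0.05 by limma there were 3 of the 10 genes, Nqo1, Me1 and Txnrd1, all lower, against a background of 6.78% of genes lower and 4.89% higher. That number was 1, Nqo1, without control replicate 2. An exact permutation test of 2 arrays against 2 cannot give a two-sided p below 0.333.

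**Figure D1:**
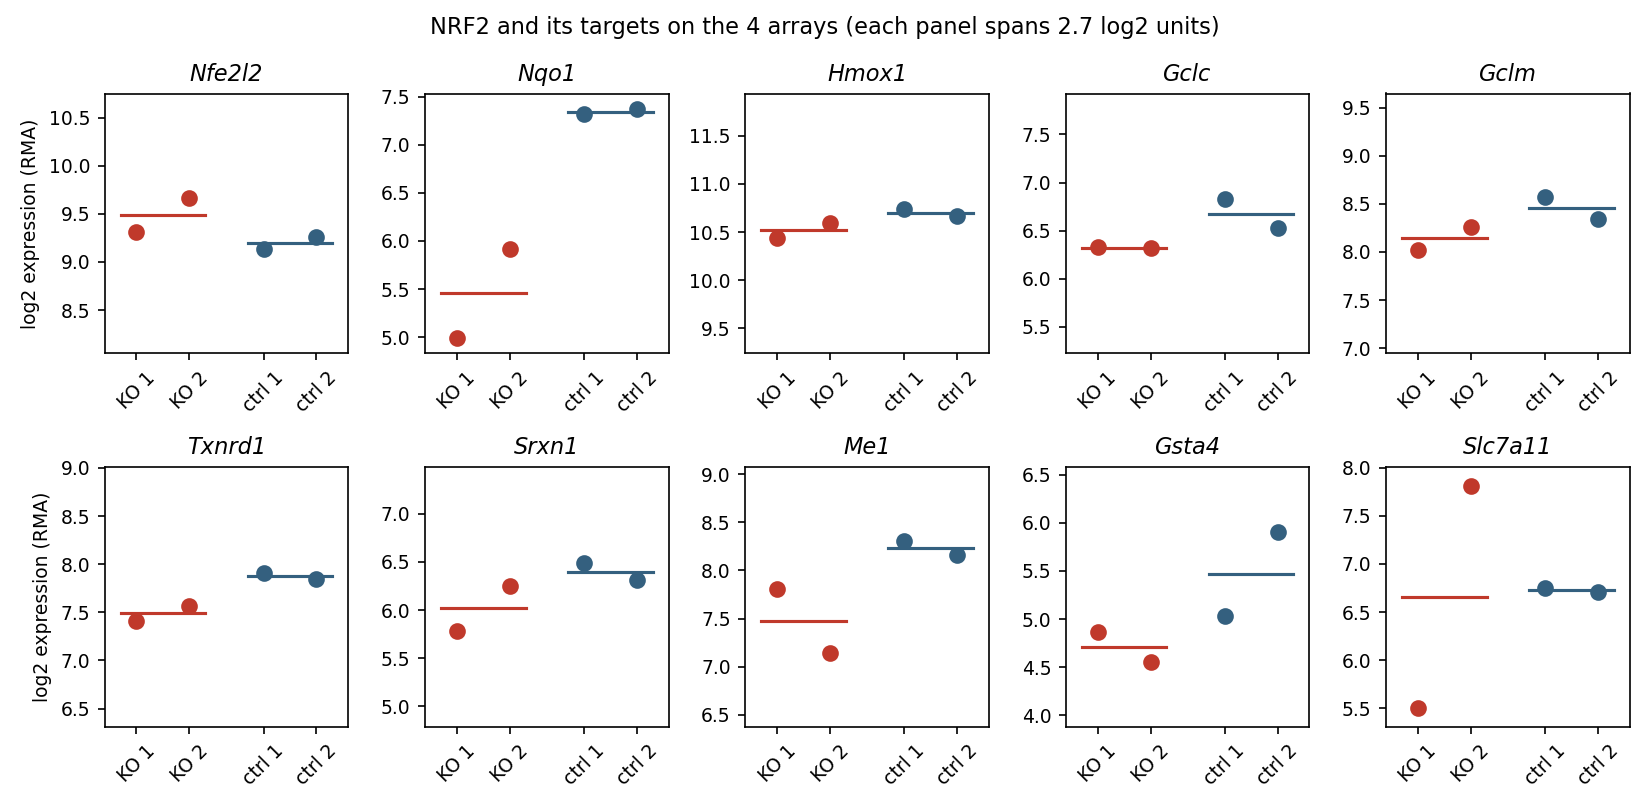
Log2 expression (RMA, vertical axis) of the 10 genes on the KO arrays (red) and the control arrays (blue), with lines at the group means and every panel spanning the same number of log2 units. Both KO arrays sit below both control arrays for 8 of the 9 targets, both sit above for Nfe2l2, and for Slc7a11 the KO arrays lie on either side of the controls.

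Facts of the arrays that touch these values were as follows. Mmp14 read 8.27 and 8.19 in the KO arrays against 8.71 and 9.05 in the control arrays, a difference of -0.65 (limma, adjusted p = 0.319). The probes of its row may partly lie outside the deleted exons, which was not tested. Apoe differed by -0.36 and Tagln by -0.01. Smooth muscle markers were present in both groups, with 6 of 13 higher and 7 lower in KO arrays. The summed level of these 13, on the log2 scale, was 12.2 to 12.8 in KO arrays and 12.2 to 12.6 in control arrays. All 20 macrophage markers read higher in KO arrays, with summed levels of 13.4 to 13.6 against 12.6 to 12.7 in control arrays. Of 16 endothelial markers 13 read lower, with summed levels of 8.88 to 8.91 in KO arrays against 10.0 to 10.8 in control arrays. The fibroblast markers were 5 higher and 4 lower, with summed levels of 11.6 to 11.8 in KO arrays and 11.6 in both control arrays. Their mean level was 6.77 and 6.80 in KO arrays, against 6.95 and 7.21 in control arrays. Without overlap 2 of the 9 were lower, Cd34 (-2.40) and Dpt (-1.51), and 2 higher, Col1a1 (0.29) and Col1a2 (0.24). The shares over all genes tested were 27.5% lower and 16.7% higher. No marker is at 0 on this scale, since RMA returns a value for every row. Tek and Cldn5 of the endothelial list fell under the filter on dim genes. In bulk RNA fewer cells of a type and less RNA per cell cannot be told apart. The part of these cell types in the Mmp14 values and in the values below was not tested.

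Nfe2l2 read 9.31 and 9.66 in KO arrays, against 9.14 and 9.26 in control arrays. Both KO arrays were above both controls, though the lower KO array cleared the higher control by only 0.05. The means were 9.48 ± 0.25 in KO and 9.20 ± 0.09 in control cells (SD, n = 2 each), a log2 difference of 0.29 with a 95% interval of -0.18 to 0.75 (limma, adjusted p = 0.587). It was 0.11 without KO replicate 2 and 0.46 without KO replicate 1. The transcripts whose profile over the 4 arrays lay nearest to that of Nfe2l2, by Euclidean distance after centring each gene on its mean, were Mef2c (0.03), Mkrn1 (0.04) and Srrm1 (0.04).

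Among quinone and NADPH enzymes, Nqo1 had the largest difference of the 10 genes. Nqo1, which reduces quinones without forming semiquinone radicals and is the classic reporter of NRF2 activity, read 4.996 and 5.91 in KO arrays, against 7.32 and 7.37 in control arrays. The KO arrays differed by 0.92 and the control arrays by 0.05, and the groups were 1.403 apart at their nearest. The means of 5.46 ± 0.65 in KO and 7.34 ± 0.04 in control cells (SD, n = 2 each) gave a difference of -1.89 (SE 0.33, 95% interval -2.74 to -1.03; limma, adjusted p = 0.210), or 0.270 times the control level. By absolute size it ranked 41 among the 12550 genes tested. Over 13 other settings the difference ran from -2.35 to -1.43 and its adjusted p (limma) from 0.0964 to 0.532. The nearest profiles to that of Nqo1 were those of Esm1 (distance 0.20), Gprc5a (0.22) and Efna5 (0.38). Gprc5a was dim in KO replicate 1, at 2.56, below the 3.02 that served as the filter on gene means. Endothelial markers were lower between the same groups (13 of 16, median difference -0.65). Their part in the Nqo1 difference was not tested.

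Me1, the cytosolic malic enzyme that makes NADPH from malate, read 7.81 and 7.14 in KO arrays, against 8.31 and 8.16 in control arrays. Its KO mean was 7.48 ± 0.47 and its control mean 8.24 ± 0.10 (SD, n = 2 each). The difference was -0.76 (SE 0.26, 95% interval -1.44 to -0.08; limma, adjusted p = 0.385), and -0.42 without KO replicate 2. Here KO replicate 2 was the lower array, whereas for Nqo1 it was KO replicate 1. The core shown above for Me1 lies at the start of 1 of its 2 windows, and Nqo1 has none in its window. A link between such cores and the differences was not tested.

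The glutathione genes differed unequally among themselves. GCLC and GCLM are the catalytic and the modifier subunit of glutamate-cysteine ligase, the rate-limiting enzyme of glutathione synthesis. Gclc read 6.33 and 6.32 in KO arrays, against 6.83 and 6.53 in control arrays. Gclm read 8.02 and 8.26 in KO arrays, against 8.57 and 8.34 in control arrays. Neither overlapped, but Gclm's nearest arrays were only 0.08 apart. The differences were -0.35 (SE 0.16; limma, adjusted p = 0.488) for Gclc and -0.31 (SE 0.17; limma, adjusted p = 0.543) for Gclm, of similar size for the subunits. Without control replicate 1 Gclc differed by -0.20, and without KO replicate 1 Gclm differed by -0.19.

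Gsta4, a glutathione transferase that conjugates the lipid peroxidation product 4-hydroxynonenal, read 4.87 and 4.56 in KO arrays, against 5.03 and 5.90 in control arrays. The control arrays themselves were 0.87 apart, more than the 0.16 between the nearest KO and control arrays. The means were 4.71 ± 0.22 in KO and 5.47 ± 0.62 in control cells (SD, n = 2 each), a difference of -0.76 (95% interval -1.61 to 0.10; limma, adjusted p = 0.473). It was -0.32 without control replicate 2. The differences of Gsta4 and Me1 were nearly the same size, and their order turned after a second quantile normalisation, with -0.76 for Gsta4 and -0.73 for Me1.

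Slc7a11, which encodes the xCT subunit of the cystine-glutamate exchanger that feeds glutathione synthesis, was the only one of the 9 targets whose groups overlapped. It read 5.50 in KO replicate 1 and 7.81 in KO replicate 2, against 6.75 and 6.71 in the control arrays. The KO arrays were 2.32 apart, one on each side of the controls, and the control arrays 0.04 apart. The mean difference of -0.08 (SE 0.76; limma, adjusted p = 0.982) therefore has a 95% interval from -2.07 to 1.92. It was 1.08 without KO replicate 1 and -1.23 without KO replicate 2. The row that was not kept read 4.88 and 6.99 in the same KO arrays, against 6.61 and 6.17 in control arrays, with the KO arrays again on either side. Slc3a2, the heavy chain that partners xCT, read 8.37 and 8.30 in KO arrays, against 8.13 and 8.07 in control arrays.

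The thiol repair genes Txnrd1 and Srxn1 differed by similar amounts. Txnrd1, the cytosolic thioredoxin reductase, read 7.41 and 7.57 in KO arrays, against 7.91 and 7.85 in control arrays. Its difference of -0.39 (SE 0.14, 95% interval -0.76 to -0.02; limma, adjusted p = 0.410) came from arrays that were 0.16 apart within the KO group and 0.06 apart within the control group. Srxn1, sulfiredoxin, which reactivates over-oxidised peroxiredoxins, read 5.79 and 6.25 in KO arrays, against 6.49 and 6.31 in control arrays. KO replicate 2 lay only 0.06 below the lower control array, and the difference of -0.38 (SE 0.21; limma, adjusted p = 0.546) was -0.14 without KO replicate 1.

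Hmox1, heme oxygenase 1, which breaks heme into biliverdin, iron and carbon monoxide and is also repressed by BACH1, read 10.44 and 10.59 in KO arrays, against 10.74 and 10.66 in control arrays. The groups did not overlap but lay 0.07 apart at their nearest. The difference of -0.18 (SE 0.14; limma, adjusted p = 0.664) was the smallest among the 8 targets without overlap, and it was -0.11 without KO replicate 1. Hmox1 is abundant in macrophages, and the macrophage markers were higher in the same KO arrays (20 of 20, median difference 1.20). The part of macrophages in the Hmox1 values was not tested.

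**Figure D2:**
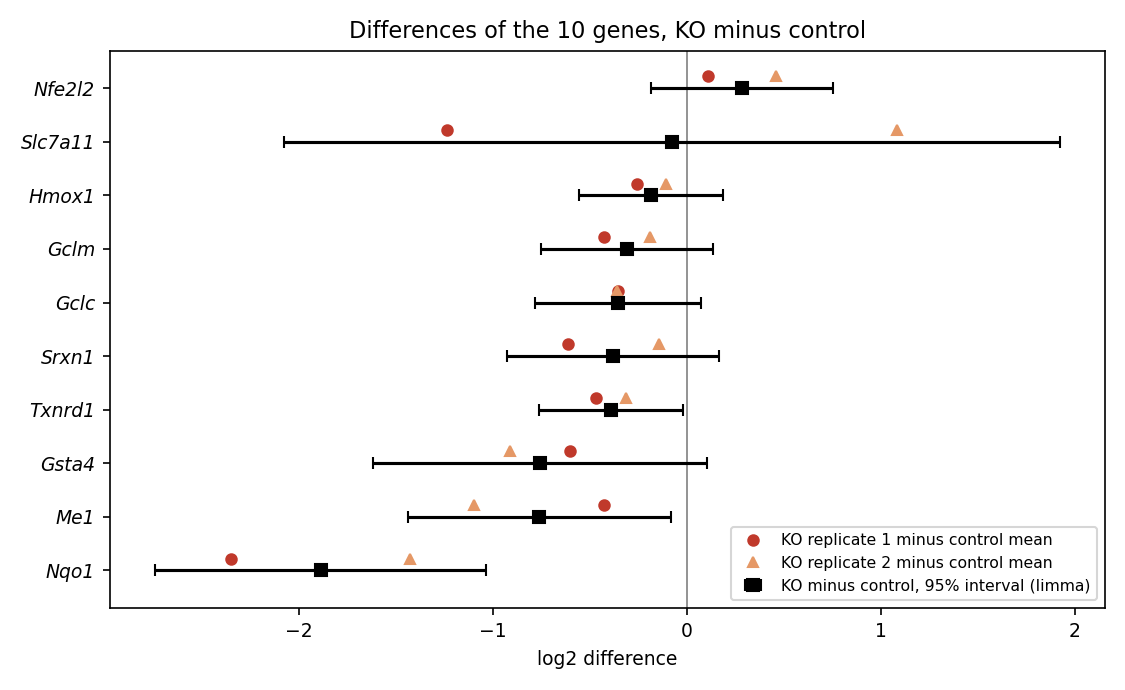
Log2 difference, KO minus control (horizontal axis), of the 10 genes, with squares and bars for the limma estimate and its 95% interval, and a circle and a triangle for KO replicates 1 and 2 minus the control mean. The intervals of Nqo1, Me1 and Txnrd1 lie wholly below 0, and that of Slc7a11 runs from -2.07 to 1.92.

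The KO arrays differed from each other in which targets were lowest. In 7 of the 10 genes KO replicate 1 read below KO replicate 2, a share that was not compared with that over all genes tested. Against the control mean, KO replicate 1 stood at -2.35 for Nqo1, -1.23 for Slc7a11, -0.61 for Srxn1 and -0.42 for Me1. KO replicate 2 stood at -1.43 for Nqo1, 1.08 for Slc7a11, -0.14 for Srxn1 and -1.10 for Me1. Gclc had nearly the same value in both, at -0.35 and -0.36. With 2 arrays a group, no test of this difference between mice can be made.

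**Figure D3:**
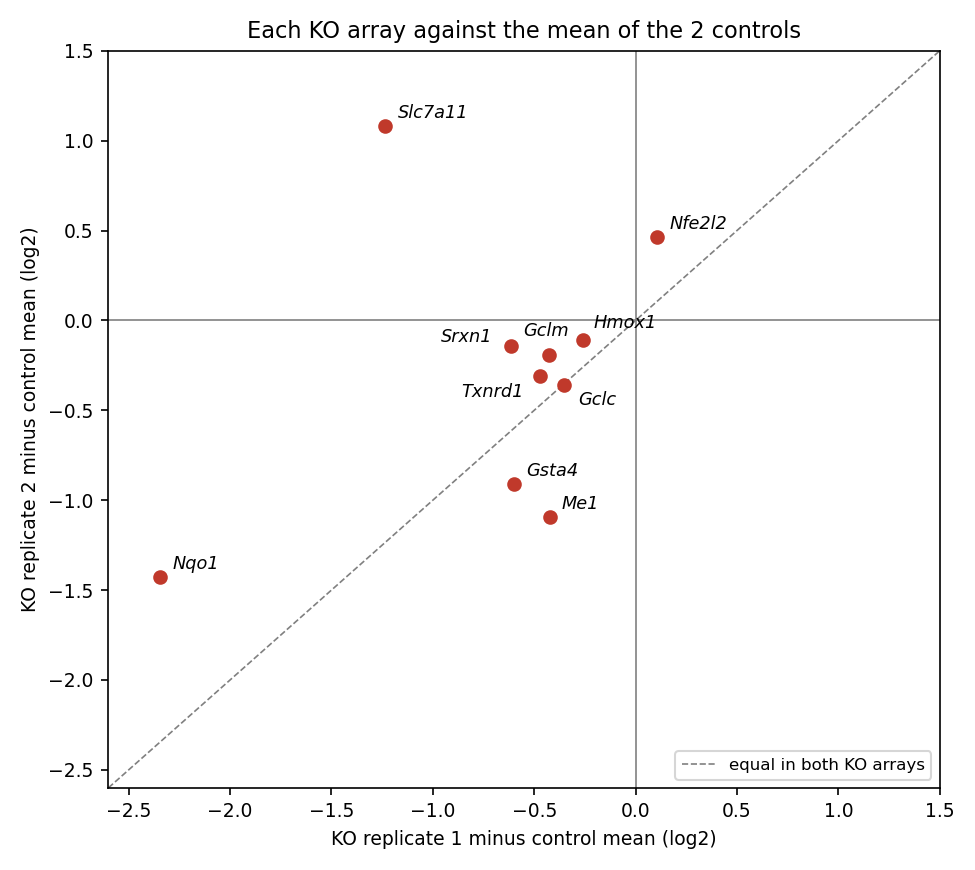
Value of each of the 10 genes in KO replicate 1 (horizontal axis) and in KO replicate 2 (vertical axis), both as log2 difference from the mean of the 2 control arrays, with a dashed line where they are equal. Of the targets 8 lie at the lower left, Slc7a11 lies in the upper left at -1.23 and 1.08, and Nfe2l2 in the upper right.

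The other genes of the pathway were taken from lists of 119 genes, of which 93 were tested. There were 43 higher and 50 lower in KO cells, against 5236 higher and 7314 lower over all genes tested. Their median difference was -0.04, against -0.05 over all genes tested. The median difference of the genes on the pathway lists was 0.02 without KO replicate 1 and -0.103 without KO replicate 2. Without overlap there were 20 higher and 29 lower, and at an unadjusted p under 0.05 by limma 4 higher and 9 lower. None passed the adjusted test. The shares lay near those over all genes tested. Those were 16.7% higher and 27.5% lower without overlap, and 4.89% higher and 6.78% lower at the unadjusted p under 0.05 by limma. A difference between these lists and the 10 genes was not tested.

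Partners and regulators of NRF2 had differences from -0.37 to 0.54. Of 15 tested 7 were higher and 8 lower, 3 and 4 of them without overlap, against 16.7% higher and 27.5% lower over all genes tested. Keap1, the adaptor that marks NRF2 for degradation, read 4.10 and 3.98 in KO arrays, against 3.95 and 3.997 in control arrays, and the groups overlapped. Bach1, the competing repressor, had the largest difference of the list at 0.54 (SE 0.24; limma, adjusted p = 0.479), with 5.71 and 5.86 in KO arrays against 5.54 and 4.94 in control arrays. The control arrays differed from each other by more than that. Sqstm1, which encodes the autophagy receptor p62 that can sequester KEAP1, differed by -0.29, Dpp3, another KEAP1 binder, by -0.32, and the co-activator Ep300 by 0.29. Of the small MAF genes, Mafg differed by 0.01, Mafk by -0.28 and Maff, whose groups overlapped, by -0.37.

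Glutathione genes outside the 10 went both ways. Of 24 tested 12 were higher and 12 lower. Without overlap there were 7 higher and 9 lower, where the shares over all genes tested were 16.7% higher and 27.5% lower. At an unadjusted p under 0.05 by limma there were 2 higher and 6 lower, against 4.89% higher and 6.78% lower over all genes tested. Gss, glutathione synthetase, which completes what the Gclc and Gclm products begin, read 4.98 and 4.86 in KO arrays, against 5.36 and 5.54 in control arrays, a difference of -0.53 (SE 0.15; limma, adjusted p = 0.338). Ggct, a gamma-glutamyl cyclotransferase, differed by -0.99 and Chac1, a glutathione-degrading enzyme, by -0.47. Of the transferases Gsto1 differed by -0.70 and Gstp1 by -0.52, while Mgst2 differed by 0.56 and Gstk1 by 0.50.

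In the thioredoxin, peroxiredoxin and catalase list, with 6 higher and 10 lower of 16, the sestrin genes Sesn1 (0.53) and Sesn2 (-0.45) met an unadjusted p under 0.05 by limma. That is 1 gene in each direction, near the 4.89% higher and 6.78% lower over all genes tested. Msrb1, a methionine sulfoxide reductase, had the largest difference there at 0.80 (SE 0.32; limma, adjusted p = 0.443). Without overlap 3 of the 16 were higher and 7 lower, against 16.7% higher and 27.5% lower over all genes tested. Among the 7, Sesn3 differed by -0.46, and Prdx4, Prdx3 and Prdx2 by -0.36, -0.23 and -0.22. Txn1, the substrate of the Txnrd1 product, differed by 0.00. Among 9 genes of NADPH supply, 6 higher and 3 lower, Nadk, the cytosolic NAD kinase, read 5.39 and 5.28 in KO arrays, against 5.75 and 5.83 in control arrays, a difference of -0.45. Pgd of the pentose phosphate pathway, a known NRF2 target, differed by 0.21 with overlapping groups, Idh1 by 0.25 and Nadk2 by -0.20. Of these 9 genes 1 was higher and 2 lower without overlap, where the shares over all genes tested were 16.7% and 27.5%.

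Of 12 heme and iron genes tested beside Hmox1, 7 were higher and 5 lower. Without overlap there were 5 higher and 0 lower, against 16.7% higher and 27.5% lower over all genes tested. An unadjusted p under 0.05 by limma was met by 0, against 4.89% higher and 6.78% lower over all genes tested. The median difference of the list was 0.14, but 0.03 with no filter on dim genes, 0.04 without KO replicate 2, 0.06 without control replicate 1 and 0.23 without KO replicate 1. Hmox2, the constitutive heme oxygenase, differed by 0.44 (SE 0.19; limma, adjusted p = 0.470) and Blvra, biliverdin reductase, by 0.41. Slc11a2, the iron transporter DMT1, differed by 0.43, the heme-binding protein gene Hebp1 by 0.52 and the ferritin heavy chain gene Fth1 by 0.19. The macrophage markers, with summed levels of 13.4 to 13.6 in KO arrays against 12.6 to 12.7 in control arrays, moved between the same groups, and their part in this was not tested.

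In the detoxification list 5 of 17 genes were higher and 12 lower. Without overlap there were 1 higher and 7 lower, against 16.7% higher and 27.5% lower over all genes tested. At an unadjusted p under 0.05 by limma there was 1 gene in each direction, near the 4.89% higher and 6.78% lower over all genes tested. Aldh1a1, a retinaldehyde dehydrogenase, read 6.60 and 5.51 in KO arrays, against 7.76 and 7.003 in control arrays, a difference of -1.33 (SE 0.45; limma, adjusted p = 0.385). Abcc3, a conjugate exporter, read 5.90 and 5.50 in KO arrays, against 5.01 and 4.20 in control arrays, a difference of 1.09 (SE 0.32; limma, adjusted p = 0.349). Ephx1, the microsomal epoxide hydrolase, differed by -0.65, the exporter gene Abcc5 by -0.38 and the carbonyl reductase gene Cbr3 by -0.28. The list's median difference was -0.19, but -0.05 without control replicate 2 and -0.34 without control replicate 1.

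Because Slc7a11 is also a target of ATF4, the transcription factor of the amino acid response, 20 genes of that response were set beside it. They were 9 higher and 11 lower, and 4 genes of this list are also on the pathway lists. Without overlap there were 5 higher and 9 lower, against 16.7% higher and 27.5% lower over all genes tested. At an unadjusted p under 0.05 by limma there were 1 higher and 5 lower. The shares over all genes tested were 4.89% higher and 6.78% lower. The median difference was -0.06, the value nearest 0 among its settings, which gave -0.11 with no filter on dim genes, -0.18 with the stricter filter and as low as -0.21 without control replicate 1. Atf4 itself differed by 0.02. Phgdh, the entry enzyme of serine synthesis, read 5.39 and 5.31 in KO arrays, against 6.17 and 6.38 in control arrays, a difference of -0.92 (SE 0.15; limma, adjusted p = 0.1998). Psat1, the next enzyme of that route, differed by -0.73, the cationic amino acid transporter gene Slc7a1 by -0.57 and Atf3 by 0.88. Psat1 read 5.51 in KO replicate 1 and 6.34 in KO replicate 2, against 6.60 and 6.71 in control arrays. The part of ATF4 in the Slc7a11 values was not tested.

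**Figure D4:**
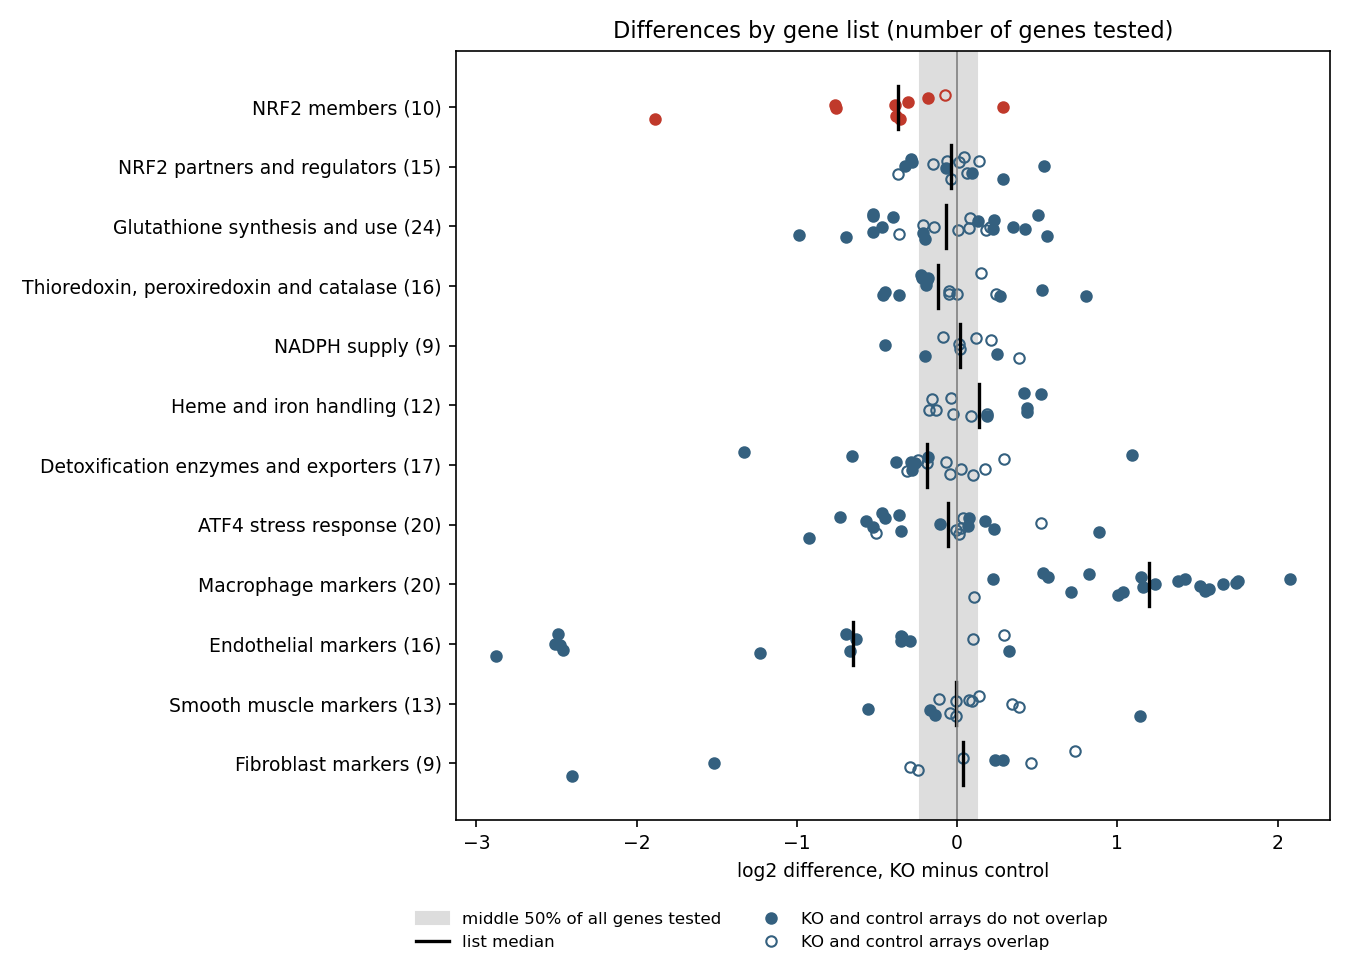
Log2 difference, KO minus control (horizontal axis), of every tested gene of each list, filled where KO and control arrays do not overlap and open where they do, with a bar at the list's median and grey over the middle 50% of all genes tested. The 10 genes around NRF2 have a median of -0.37, the other pathway lists have medians between -0.19 and 0.14, and macrophage and endothelial markers lie to the right and left.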

How the data were processed

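The deposited table gave log2 values for 41345 rows, which the authors had background-corrected, normalised and summarised with RMA, per the submitters' processing notes. No software version or chip definition was given, and the log base was read from the range of 1.17 to 12.4. Rows were named through the platform annotation: 23521 had 1 symbol, 1814 several and 16010 none. Per gene the row with the highest mean was kept, and 12550 genes with a mean of at least 3.02, the median over rows, were tested. All 10 NRF2 genes passed, with group means of at least 4.71. Each gene was fitted in limma 3.58.1 (R 4.3.3; lmFit, eBayes), KO minus control, without covariates, with Benjamini-Hochberg adjustment over all genes tested. The fit was tested on simulated data. Figures were drawn with matplotlib 3.10.9. Arrays have no sequencing depth, and their number limits the precision.

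The members and lists were chosen with earlier results of these data known. By rule up to 4 non-overlapping genes per list with the largest difference were named. Keap1, Mafg, Mafk, Maff, Slc3a2, Chac1, Gstp1, Gstk1, Prdx2, Prdx3, Prdx4, Txn1, Pgd, Fth1, Cbr3, Atf4, Tek and Cldn5 fall outside it and were named after their values were seen. Alternatives were a replicate block, 2 other filters, quantile normalisation, median centring, the mean of a gene's rows, eBayes with trend or with trend and robust estimation, array weights and leaving out each array.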

Additional observations from a re-analysis of the deposited data

How the results depend on the processing

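Over 13 alternatives limma called 0 genes at an adjusted p under 0.05, with a smallest adjusted p of 0.0708 to 0.429 and 929 to 2125 genes at an unadjusted p under 0.05 (1465 as reported; 975 without control replicate 1, and 929 of 6787 genes with the stricter filter). All 10 NRF2 genes kept their direction under the 9 alternatives that use all 4 arrays. When single arrays were left out, the direction turned for Slc7a11, which ran from -1.23 without KO replicate 2 to 1.08 without KO replicate 1, and for Tagln, from -0.36 to 0.34. The other 9 genes kept theirs. The number of NRF2 genes lower in KO cells was 8 without KO replicate 1 and 9 otherwise. Their median difference was -0.45 to -0.25 when arrays were left out, -0.33 after quantile normalisation and -0.40 after median centring. With the replicate number as a block, the unadjusted p under 0.05 was met by 2 NRF2 genes, Nqo1 and Me1, and 0 genes passed the adjustment. The titles do not say that a number marks a pair, and same-numbered arrays hardly deviated together (r = 0.05 across genes, which are not independent). Medians of pathway and marker lists moved with the filters, which change the genes tested, among them those of the heme and iron, ATF4 and endothelial lists. The endothelial median was -0.65, but -2.48 with the stricter filter.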
